A study of Mus musculus with 5 samples.

Results

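The HOX genes, the MEIS and PBX proteins that bind DNA beside them and Skap2, the gene next to the Hoxa cluster, were followed in mouse gliomas carrying mutant or wild-type IDH1. The list holds 44 genes (38 HOX genes of the 4 clusters, 5 cofactors and Skap2) among 16917 genes tested on the array. The genes were chosen by symbol once the mutIDH1 minus wtIDH1 differences of these data were known, several Hoxa genes and Skap2 being among the steepest, and each is represented by its brightest probe over all samples. The differences between the groups are therefore given for the members as a description, and no p-value of a single member is printed. Where members are counted as passing the test over all genes, that is also a description, because they were picked on the same contrast.

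The tumours were 3 mutIDH1 and 2 wtIDH1 gliomas, each on 1 Illumina BeadArray. All arose in Ntva mice lacking Ink4a/Arf, on a mixed FVB/N, C57BL6, BALB/C and 129 background. Each mouse had received DF1 chicken cells releasing PDGFa virus together with DF1 cells releasing virus for an shp53 hairpin joined to IDH1. That IDH1 was the mutant form (muIDH1) in the mutIDH1 group and the wild-type form (wtIDH1) in the wtIDH1 group. PDGFa, shp53 and the loss of Ink4a/Arf were thus common to both groups, and the mice carried the tumours until signs of illness. In Ntva mice the viral receptor is driven by the nestin promoter, as background knowledge, so that infection begins in nestin-expressing progenitors. RNA came from whole tumour tissue without sorting, so that fewer cells expressing a gene and less RNA per cell cannot be told apart. Nothing in the labels gives the ages of the mice or the brain region of the tumours.

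HOX genes encode homeodomain transcription factors that sit in clusters on 4 chromosomes. In the embryo they are switched on in order along each cluster, low-numbered genes in the hindbrain and higher-numbered ones progressively further towards the tail, and forebrain and midbrain normally lack them. Polycomb complexes keep the clusters silent, trithorax (MLL) complexes keep them active, and retinoic acid switches the low-numbered genes on. MEIS and PBX proteins are homeodomain partners of the TALE class that sharpen the sites HOX proteins bind. Skap2 encodes an adaptor protein of leukocyte adhesion signalling.

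The signals are log2 values without background subtraction, and a signal at or under 7.51 was taken as background. The 3 mutIDH1 arrays correlated at Pearson r between 0.988 and 0.994 across genes, the 2 wtIDH1 arrays at 0.971 and pairs across the groups between 0.969 and 0.980, genes not being independent. Neuron markers differed widely between the wtIDH1 tumours, their mean signal being 7.59 in wtIDH1 sample 1 and 10.20 in wtIDH1 sample 2.

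Hoxa2, Hoxa4, Hoxa5, Hoxa7 and Skap2 were far lower in mutIDH1 gliomas, and the rest of the list showed no such difference. In the limma fit across all genes, 5 of the 36 members tested fell in mutIDH1 and 0 rose (5 and 0 at an unadjusted p under 0.05). Among all genes 0.899% fell and 0.449% rose. Since the members were picked on this contrast, nothing is read from that count. The groups did not overlap, with mutIDH1 lower, in 7 of the 36 tested members, against 14.0% of all genes, and with mutIDH1 higher in 3 of 36, against 16.7% of all genes. The median difference over the 44 members was 0.01 on the log2 scale, as it was over all genes tested (0.01).

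Hoxa5, a HOX gene of the brainstem, spinal cord and lung, had signals of 7.27, 7.34 and 7.38 in the mutIDH1 tumours, against 11.21 and 10.70 in the wtIDH1 tumours. Every mutIDH1 value lay at background and both wtIDH1 values lay well above it. The difference was −3.63 ± 0.16 (log2, SE), and because the mutIDH1 signal is only a bound, Hoxa5 was at least 10.9-fold lower in mutIDH1. Hoxa7, a gene of the trunk, showed the same pattern. Its signals were 7.40, 7.19 and 7.29 in the mutIDH1 tumours, against 10.78 and 11.05 in the wtIDH1 tumours. It was at least 10.6-fold lower in mutIDH1, with a difference of −3.62 ± 0.11.

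Hoxa2, which patterns the hindbrain and the neural crest leaving it, had signals of 7.63, 7.44 and 7.72 in the mutIDH1 tumours, against 10.23 and 9.69 in the wtIDH1 tumours. Here 2 of 3 mutIDH1 arrays lay just above background, and the difference was −2.36 ± 0.18. The second probe of Hoxa2 gave 7.34, 7.11 and 7.31 in mutIDH1, against 10.14 and 8.88 in wtIDH1, a difference of −2.26. Hoxa4 had signals of 7.32, 7.42 and 7.35 in the mutIDH1 tumours, against 9.42 and 8.91 in the wtIDH1 tumours. It was at background in all mutIDH1 tumours and at least 3.15-fold lower there (−1.80 ± 0.16). Hoxa4, Hoxa5, Hoxa7 and Skap2 were each read by 1 probe.

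Skap2 had signals of 10.34, 9.95 and 9.83 in the mutIDH1 tumours, against 12.70 and 12.003 in the wtIDH1 tumours. Unlike Hoxa2, Hoxa4, Hoxa5 and Hoxa7, it was above background in every tumour, and it was 4.95-fold lower in mutIDH1 (−2.31 ± 0.25). The wtIDH1 tumours also differed from each other, Skap2 being 0.69 higher in sample 1, and Hoxa2, Hoxa4 and Hoxa5 were higher in sample 1 by 0.55, 0.50 and 0.51. Hoxa7 ran the other way, by −0.26. These gaps were well below the distance between the groups, whose nearest values stood 3.33 apart for Hoxa5, 3.39 for Hoxa7, 1.97 for Hoxa2, 1.66 for Skap2 and 1.49 for Hoxa4.

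**Figure D1:**
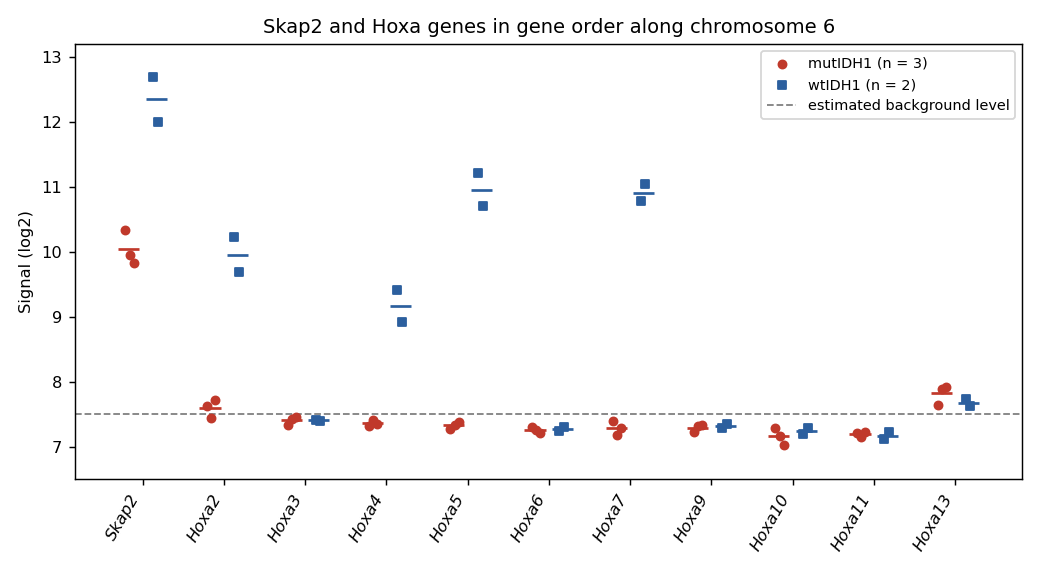
Log2 signal (y axis) of Skap2 and the 10 Hoxa members in gene order (x axis), with 1 point per tumour, mutIDH1 as red circles and wtIDH1 as blue squares; short lines are group means and the dashed line is the estimated background level of 7.51. Skap2, Hoxa2, Hoxa4, Hoxa5 and Hoxa7 separate the groups, while Hoxa3, Hoxa6 and Hoxa9 to Hoxa11 lie under the dashed line in all 5 tumours.

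Whether these 5 genes were called depended on which tumour was dropped. The same held across the array, where the fit to all tumours gave 228 changed genes. That total shrank to 14 once the first mutIDH1 tumour was dropped, and to 0 once the second or the third was. The lost calls were thus not particular to these 5 genes. Leaving out mutIDH1 sample 1 left 2 of the 5 called (Hoxa5 and Hoxa7), and leaving out mutIDH1 sample 2 or 3 left 0 by limma (5 at an unadjusted p under 0.05 in both). All 5 were called without either wtIDH1 tumour, where the lone wtIDH1 tumour is assumed to vary like the mutIDH1 tumours. Over the tumours left out 1 at a time, the difference ran from −3.88 to −3.37 for Hoxa5, from −3.75 to −3.49 for Hoxa7, from −2.63 to −2.09 for Hoxa2, from −2.06 to −1.55 for Hoxa4 and from −2.65 to −1.96 for Skap2. With normexp background correction the differences were −4.53 for Hoxa5, −4.57 for Hoxa7, −2.99 for Hoxa2 and −2.52 for Hoxa4, and −2.40 for Skap2.

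The remaining Hoxa genes did not share the pattern, although some lie between those that did. Hoxa3 was at background in all tumours on each of its 4 probes, with a difference of 0.00 ± 0.07 for the brightest. Its dimmer probes gave −0.14, −0.09 and −0.005, and the groups did not overlap at −0.14 and −0.09. Hoxa6, which lies between Hoxa5 and Hoxa7, had signals of 7.30, 7.26 and 7.22 in the mutIDH1 tumours, against 7.24 and 7.31 in the wtIDH1 tumours. Its single probe thus showed no signal above background in either group. Hoxa9, Hoxa10 and Hoxa11, genes of the lower trunk and limbs, were at background throughout, with differences between −0.08 and 0.03 on their brightest probes. Dimmer probes gave −0.19 (groups not overlapping) and 0.05 for Hoxa9, and 0.06 (groups not overlapping, mutIDH1 higher) for Hoxa10. Hoxa13, the last gene of the cluster and one of the digits and urogenital tract, lay between 7.64 and 7.93 in the mutIDH1 tumours, against 7.63 and 7.73 in the wtIDH1 tumours, with overlapping groups; its other 2 probes were at background. A probe at background says only that it gave no measurable signal, and a poor probe and a silent gene cannot be told apart.

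The genes on either side of the Hoxa stretch on chromosome 6 were set beside it, a choice made after the members' values were seen. In gene order the measured genes before Skap2 are C530044C16Rik, Nfe2l3, Hnrnpa2b1, Cbx3 and Snx10, and those after Hoxa13 are Hottip, Evx1, Hibadh, Tax1bp1, Jazf1, Creb5 and Tril. Snx10, a sorting nexin and the nearest measured gene beyond Skap2, had signals of 11.57, 11.37 and 11.47 in the mutIDH1 tumours, against 11.42 and 11.57 in the wtIDH1 tumours. Its difference was −0.03 ± 0.10 (limma adjusted p = 0.949). Hottip, a long noncoding RNA at the far end of the cluster, and Evx1, the homeobox gene beyond it, had differences of −0.04 and 0.14. Over the 12 measured non-member genes of this stretch the difference ran from −0.15 to 0.49 and 0 passed the limma test (1 at an unadjusted p under 0.05, C530044C16Rik at 0.48 ± 0.16). The lower signals in mutIDH1 therefore ran from Skap2 to Hoxa7 among the measured genes, with Hoxa3 and Hoxa6 as exceptions.

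**Figure D2:**
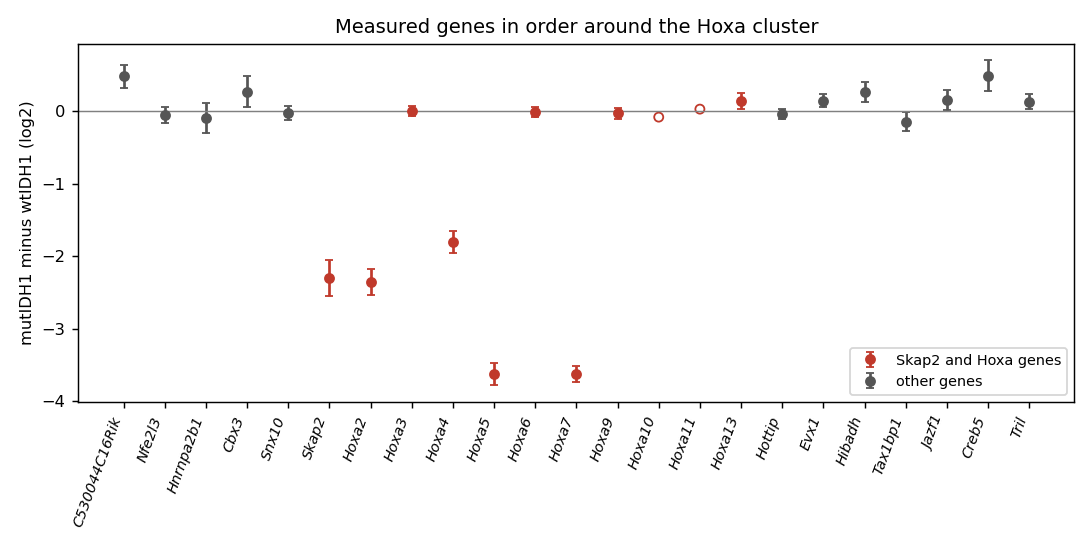
Difference mutIDH1 minus wtIDH1 in log2 units (y axis, bars are the moderated SE) for 23 measured genes in chromosomal order (x axis); red marks Skap2 and the Hoxa members, grey the other genes, and open circles are genes left out of the test as too dim. The 5 low points lie between −3.63 and −1.80, and the flanking genes lie between −0.15 and 0.49.

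Promoter sequences of genes that moved together are shown with that of Hoxa6, which lay among them without signal. They are RefSeq promoters of mouse build GRCm38.p6, from 250 bases before to 50 bases after a transcript's start, and 27 of the 44 members matched an entry. All 5 lie on the minus strand, at chr6:52164782-52165081 (Hoxa2), chr6:52204538-52204837 (Hoxa5), chr6:52208623-52208922 (Hoxa6), chr6:52218524-52218823 (Hoxa7) and chr6:52012500-52012799 (Skap2). Capitals mark every match, on both strands, to TAAT (the core of homeodomain sites), TGATNNAT (a joint HOX and PBX site), TGACAG (a MEIS site) or AGGTCA (the core of retinoid receptor sites); matches may overlap.
Hoxa2: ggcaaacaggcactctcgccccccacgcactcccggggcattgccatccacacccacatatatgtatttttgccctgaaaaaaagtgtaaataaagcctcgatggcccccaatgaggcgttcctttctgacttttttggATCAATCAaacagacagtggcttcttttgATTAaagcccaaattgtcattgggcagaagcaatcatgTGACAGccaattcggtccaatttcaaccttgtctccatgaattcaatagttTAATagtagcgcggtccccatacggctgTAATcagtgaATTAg
Hoxa5: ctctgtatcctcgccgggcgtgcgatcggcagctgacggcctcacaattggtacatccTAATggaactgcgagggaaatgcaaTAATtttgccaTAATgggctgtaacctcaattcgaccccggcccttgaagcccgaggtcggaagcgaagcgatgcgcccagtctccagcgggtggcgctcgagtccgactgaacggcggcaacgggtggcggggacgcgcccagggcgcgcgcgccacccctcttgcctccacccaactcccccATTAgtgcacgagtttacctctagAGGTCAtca
Hoxa6: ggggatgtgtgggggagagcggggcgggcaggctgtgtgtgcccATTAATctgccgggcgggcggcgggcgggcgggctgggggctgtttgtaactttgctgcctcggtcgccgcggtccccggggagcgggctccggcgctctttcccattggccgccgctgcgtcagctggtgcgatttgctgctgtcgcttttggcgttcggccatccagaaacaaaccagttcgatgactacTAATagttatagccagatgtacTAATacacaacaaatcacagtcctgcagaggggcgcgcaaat
Hoxa7: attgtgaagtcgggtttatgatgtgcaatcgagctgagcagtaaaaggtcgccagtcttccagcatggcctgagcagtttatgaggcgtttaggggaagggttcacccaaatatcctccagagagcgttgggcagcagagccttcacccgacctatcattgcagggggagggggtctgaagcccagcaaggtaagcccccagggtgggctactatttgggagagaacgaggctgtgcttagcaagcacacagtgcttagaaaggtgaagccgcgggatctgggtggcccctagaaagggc
Skap2: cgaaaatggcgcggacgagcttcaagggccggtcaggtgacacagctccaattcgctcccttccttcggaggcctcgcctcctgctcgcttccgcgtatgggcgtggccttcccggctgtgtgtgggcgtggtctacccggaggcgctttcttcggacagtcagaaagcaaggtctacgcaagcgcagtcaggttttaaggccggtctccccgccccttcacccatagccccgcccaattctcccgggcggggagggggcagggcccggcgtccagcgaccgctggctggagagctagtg

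The Hoxa2 promoter held 4 TAAT matches, 1 TGATNNAT match and 1 TGACAG match. The Hoxa5 promoter held 4 TAAT matches and 1 AGGTCA match, the Hoxa6 promoter held 4 TAAT matches, and the Hoxa7 and Skap2 promoters held none of the 4 motifs. Among 32851 promoters of the same length, 58.0% held TAAT, 8.85% TGATNNAT, 19.2% TGACAG and 16.3% AGGTCA. No motif was thus found in all 4 promoters shown of genes that were lower in mutIDH1; Hoxa4 is not among the promoters used here. CG dinucleotides, the sites of DNA methylation, numbered 29 in the Hoxa5 window, 28 in that of Skap2, 9 in those of Hoxa2 and Hoxa7 and 26 in that of Hoxa6, against a median of 7 over all promoters. These counts describe the sequence, and methylation was not measured here.

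The Hoxb, Hoxc and Hoxd clusters gave almost no signal in either group. Of the 38 HOX genes 29 were at background in all 5 tumours (76.3%, against 29.8% of all genes tested), with signals between 7.03 and 7.47. The bases of these shares differ. The 38 include 8 HOX genes too dim to enter the test, all at background, whereas the 29.8% leaves such genes out. The median differences were −0.06 for Hoxa, 0.04 for Hoxb, 0.05 for Hoxc and −0.01 for Hoxd, and 0 of the members in the last 3 clusters passed the limma test (0 at an unadjusted p under 0.05). At background, an absent difference cannot be told from an unmeasured one.

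Hoxb2, which like Hoxa2 acts in the hindbrain, was the 1 exception in size. Its signals were 7.39, 7.38 and 7.58 in the mutIDH1 tumours, against 8.74 and 7.32 in the wtIDH1 tumours. It was thus clearly above background in wtIDH1 sample 1 only, and the groups overlapped (−0.58 ± 0.40). Without wtIDH1 sample 1 the difference turned to 0.13, and without wtIDH1 sample 2 it was −1.29, where it passed the test.

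The other Hoxb members (Hoxb1, Hoxb3, Hoxb4, Hoxb5, Hoxb6, Hoxb7, Hoxb8, Hoxb9 and Hoxb13), all Hoxc members (Hoxc4, Hoxc5, Hoxc6, Hoxc8, Hoxc9, Hoxc10, Hoxc11, Hoxc12 and Hoxc13) and all Hoxd members (Hoxd1, Hoxd3, Hoxd4, Hoxd8, Hoxd9, Hoxd10, Hoxd11, Hoxd12 and Hoxd13) lay at or near background. Together with the 6 Hoxa genes that did not fall, these 33 genes had differences between −0.14 for Hoxd8 and 0.22 for Hoxb5. Only Hoxb3 and Hoxc10 (in 1 mutIDH1 tumour each) and Hoxc4 (in 1 wtIDH1 tumour) crossed the background level, at 7.70, 7.55 and 7.52, and Hoxa13 lay just above it in all tumours. Hoxa10, Hoxa11, Hoxb7, Hoxb8, Hoxc5, Hoxd1, Hoxd4 and Hoxd8 were too dim to enter the test.

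**Figure D3:**
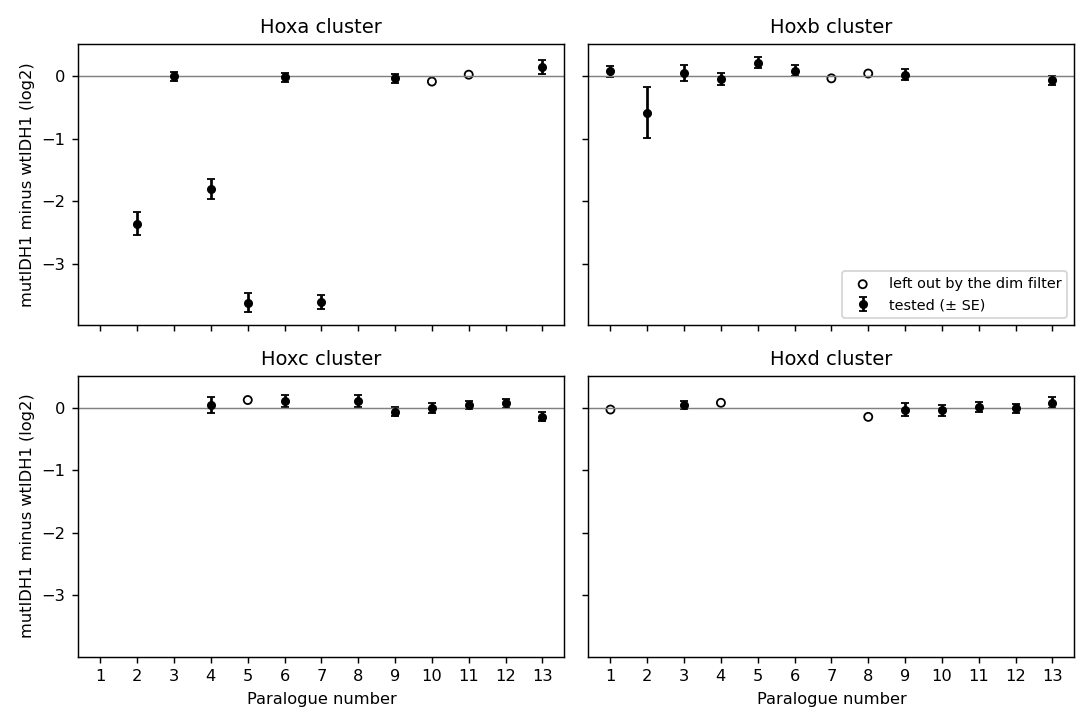
Difference mutIDH1 minus wtIDH1 in log2 units (y axis) against paralogue number (x axis) in each HOX cluster; filled points carry the moderated SE and open points were left out of the test as too dim. Only Hoxa2, Hoxa4, Hoxa5 and Hoxa7 lie below −1, and Hoxb2 at −0.58 has the widest error.

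The cofactors were above background in both groups, at overlapping levels on their brightest probes. Meis1, a HOX partner of progenitors and leukaemias, had signals of 10.05, 10.09 and 10.02 in the mutIDH1 tumours, against 10.32 and 9.61 in the wtIDH1 tumours (0.09 ± 0.21). Meis2, its close relative in the developing brain, had 11.42, 11.28 and 11.22 in mutIDH1, against 11.45 and 10.59 in wtIDH1 (0.29 ± 0.25). For both genes all 3 mutIDH1 values lay between the wtIDH1 values, and the sign of the difference depended on the wtIDH1 tumour kept. Without wtIDH1 sample 1 the difference was 0.44 for Meis1 and 0.72 for Meis2, and without wtIDH1 sample 2 it was −0.27 and −0.14. Their dimmer probes gave differences of −0.33 and −0.08 for Meis1 and from −0.24 to 0.10 for Meis2. On the Meis1 probe at −0.33 the groups did not overlap, with 7.48, 7.48 and 7.41 in mutIDH1 (all at background), against 7.79 and 7.80 in wtIDH1. A dim Meis2 probe had 7.31, 7.34 and 7.19 in mutIDH1, against 7.47 and 7.57 in wtIDH1, and another ran the other way, with 7.42, 7.22 and 7.23 in mutIDH1, against 7.19 and 7.20 in wtIDH1. The groups did not overlap on either, and all but 1 of these values lay at background.

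Meis3 had signals of 7.99, 8.12 and 7.96 in the mutIDH1 tumours, against 7.98 and 7.85 in the wtIDH1 tumours (0.11 ± 0.09). Pbx2 had 8.19, 8.35 and 8.35 in mutIDH1, against 8.21 and 8.45 in wtIDH1 (−0.03 ± 0.10). Pbx3 had 8.25, 8.16 and 7.98 in mutIDH1, against 8.17 and 7.88 in wtIDH1 (0.11 ± 0.13). On the brightest probe of each, all 5 cofactors had overlapping groups.

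**Figure D4:**
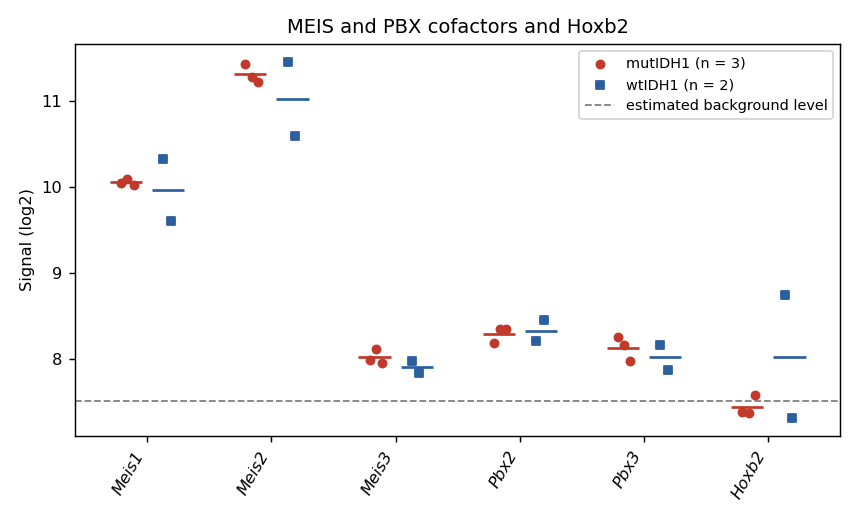
Log2 signal (y axis) of the 5 cofactors and Hoxb2 (x axis), 1 point per tumour, mutIDH1 as red circles and wtIDH1 as blue squares; short lines are group means and the dashed line is the background level of 7.51. On these brightest probes the groups overlap for each cofactor, and Hoxb2 stands out in 1 wtIDH1 tumour at 8.74.

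Genes that regulate the clusters, work with HOX proteins, or only flank or belong to the clusters were read from lists that do not overlap the members. Of 80 such genes tested 1 fell in mutIDH1 and 0 rose by limma (11 at an unadjusted p under 0.05 in either direction), with a median difference of −0.01. The one that fell was Stra6, the membrane receptor that takes retinol into cells. Its signals were 7.72, 7.49 and 7.64 in the mutIDH1 tumours, against 8.28 and 8.24 in the wtIDH1 tumours (−0.64 ± 0.09, limma adjusted p = 0.0488). The mean of its probes gave −0.33 (limma adjusted p = 0.0883), and over all settings its limma adjusted p ran from 0.0206 to 0.417. The call was lost whenever any 1 tumour was left out, although the difference then stayed between −0.69 and −0.58.

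None of 29 Polycomb and trithorax genes passed by limma (3 at an unadjusted p under 0.05), and the median was 0.05. Those with the smallest p were Eed, a core Polycomb subunit (−0.36 ± 0.08, limma adjusted p = 0.116), Men1, a partner of MLL (0.25 ± 0.07, limma adjusted p = 0.185), and Cbx2, a Polycomb reader (0.23 ± 0.08, limma adjusted p = 0.298). Of 8 further TALE genes tested 0 passed by limma (5 at an unadjusted p under 0.05, all lower in mutIDH1). Among them Irx5 had signals of 7.95, 7.69 and 7.52 in the mutIDH1 tumours, against 10.71 and 9.30 in the wtIDH1 tumours (−2.28 ± 0.41, limma adjusted p = 0.0791). Irx2 stood at −1.67 ± 0.38 and Tgif1 at −0.28 ± 0.07. Irx5 passed when only probes above background on at least 2 arrays were kept. Of 20 genes that flank or belong to the clusters, 0 passed by limma (1 at an unadjusted p under 0.05). None of the 4 hindbrain regulators passed either (0 at an unadjusted p under 0.05), with Gbx2 at 0.63 ± 0.29 and Egr2 at 0.57 ± 0.38. Fgf3 and Fgf8, the other hindbrain regulators tested, were at background in all tumours. Of 19 tested genes in the list that held Stra6, 7 were also at background in all tumours. Skap1, named here for its place as the paralogue of Skap2 beside the Hoxb cluster, was at background in all tumours.

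Since HOX genes mark position and Skap2 acts in leukocyte adhesion signalling, markers of brain regions and of other cells were set beside them. Among 7 tested midbrain markers 1 fell, En1, a midbrain and hindbrain homeobox gene, with signals of 8.13, 8.11 and 8.16 in the mutIDH1 tumours, against 10.53 and 10.39 in the wtIDH1 tumours (−2.33 ± 0.08, limma adjusted p = 0.00199). The midbrain list as a whole had a median difference of −0.06, and 5 of its 8 measured genes (Pax2, Pax5, Pax8, Wnt1 and Lmx1b) were at background in all tumours. None of 9 forebrain markers passed by limma (1 at an unadjusted p under 0.05, Otx1 at 0.69 ± 0.20), nor did any of 7 hindbrain and spinal markers (0 at an unadjusted p under 0.05). Of 11 measured genes each of the forebrain and hindbrain lists, 5 and 6 were at background in all tumours, among them Emx1, Emx2, Lbx1, Atoh1 and Ptf1a.

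Like the neutrophil, endothelial and mural lists below, monocyte and macrophage markers had a lower mean signal in mutIDH1. Of 8 tested 4 fell in mutIDH1 (Mrc1, Ms4a7, F13a1 and Plac8, by limma, with differences of −1.35, −2.51, −1.21 and −1.37), and the mean signal of the 9 measured was 8.30, 8.22 and 7.97 in the mutIDH1 tumours, against 9.08 and 9.44 in the wtIDH1 tumours. The list was higher in wtIDH1 sample 2 than in sample 1, the reverse of Skap2, and Ccr2 was at background in all tumours. Neutrophil markers averaged 7.42, 7.41 and 7.47 in mutIDH1, against 7.97 and 7.92 in wtIDH1. By limma 2 of 7 fell (the calprotectin genes S100a8 at −1.80 ± 0.15 and S100a9 at −1.34 ± 0.14), and Elane was at background. No other neutrophil marker had an unadjusted p under 0.05 (limma), and the list median was −0.18. Microglia markers averaged 9.21, 9.27 and 9.20 in mutIDH1, against 9.19 and 9.58 in wtIDH1, with 0 of 5 passing by limma (2 at an unadjusted p under 0.05). Endothelial markers (3 of 8 falling, Cdh5, Vwf and Emcn) averaged 8.71, 8.76 and 8.95 in mutIDH1, against 9.41 and 9.44 in wtIDH1, and mural and fibroblast markers (3 of 8 falling, Acta2, Pdgfrb and Col1a1) averaged 9.02, 8.83 and 8.83 in mutIDH1, against 9.74 and 9.79 in wtIDH1. The part of these cells in the Skap2 and Hoxa differences was not tested. By limma 0 of 3 lymphocyte, 0 of 5 neuron, 0 of 6 oligodendrocyte and 0 of 4 astrocyte markers passed (0, 0, 3 and 1 at an unadjusted p under 0.05). Cd3g, Cd4 and Cd8a were at background in all tumours, as were the probes of Snap25 and Tubb3.

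**Figure D5:**
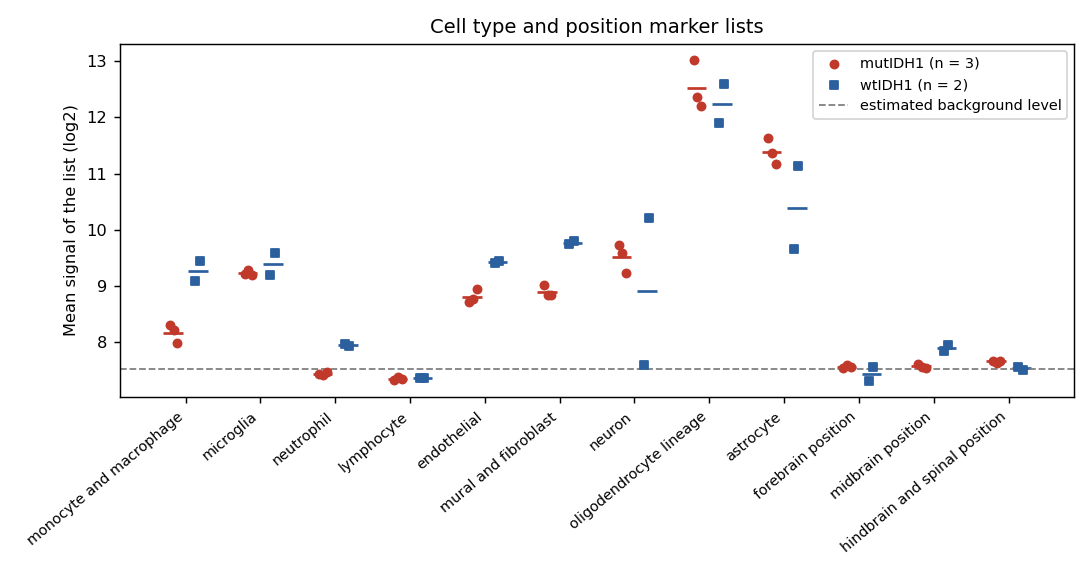
Mean log2 signal (y axis) of the measured genes of each marker list (x axis), 1 point per tumour, mutIDH1 as red circles and wtIDH1 as blue squares; short lines are group means and the dashed line is the background level of 7.51. Monocyte and macrophage, neutrophil, endothelial and mural lists lie lower in all mutIDH1 tumours, and the neuron list spans 7.59 to 10.20 within wtIDH1.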

How the data were processed

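RNA of 5 tumours was profiled on Illumina BeadArrays. The values deposited by the authors are log2 signals of 45281 probes. limma is named in the submitters' processing notes, without a version, and its steps are not given in the sources used here. Array medians differ by at most 0.00069, as after quantile normalization. The lowest linear signal is 120.2, so background was not subtracted to 0, which compresses differences of dim genes. A table of non-normalized signals was not used, because its 10 columns match no single sample's labels.

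Of the probes, 34885 had 1 gene symbol, updated through RefSeq (GRCm38.p6). Probes under a mean of 7.23 (the dimmest 20%) were left out and the brightest probe represented each gene, leaving 16917 genes. Background was the mode of all signals (7.24) plus 3 times the spread below it (0.0887). limma 3.58.1 (R 4.3.3, lmFit and eBayes, group as the only term, 2-sided) was run on all genes, with Benjamini-Hochberg adjustment and a threshold of 0.05. The fit was tested on simulated data. An "at least" fold sets the wtIDH1 mean against the higher of background and signal on each mutIDH1 array. Each sample carries its own tumour code, and p-values measure only the spread between these samples, whose number limits precision.

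Members, lists and motifs were chosen with earlier results of these data known. Named were all members, the pathway and marker genes that passed, and otherwise up to 3 of a list with the smallest p; markers at background and flanking genes were named after their values were seen. Motifs in proteins were not searched. Alternatives covered the dim filter, probes per gene, normexp (offset 50), cyclic loess, moderation, samples left out and the sample number as a block.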

Additional observations from a re-analysis of the deposited data

How the results depend on the processing

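The 5 members called (Hoxa2, Hoxa4, Hoxa5, Hoxa7 and Skap2) were called under every other filter, probe summary, background correction, normalization and moderation tried. These members were picked on this contrast, so their repeated calls are a description and not support. Hoxa4, Hoxa5 and Hoxa7 moreover passed the filter for signal on at least 2 arrays only through the wtIDH1 tumours. Leaving out 1 sample at a time gave between 0 and 6 called members, between 0 and 479 changed genes (228 with all samples) and between 0 and 4 changed pathway genes (the last from Irx3, Irx5, Cbx6 and Aldh1a1 without wtIDH1 sample 2). Fits without a wtIDH1 sample take the spread from the mutIDH1 tumours alone. Over all samples left out 1 at a time, the medians ran from 0.00965 to 0.0718 for Hoxc and from 0.00314 to 0.0361 for Hoxd. All lay within the background signal. Trended and robust moderation gave 363 changed genes. The count of changed pathway genes was 0 with the mean of probes and 0 with cyclic loess (9 and 11 at an unadjusted p under 0.05, limma) and 2 with normexp (Irx5 and Stra6); with probes above background on at least 2 arrays Irx5 passed in place of Stra6. Normexp moved the median of Hoxa to −0.12 and that of Hoxc to 0.11; it spreads dim values by its construction. With the sample number as a replicate block, 0 genes, 0 members and 0 pathway genes passed by limma (1562, 5 and 8 at an unadjusted p under 0.05), in a fit with fewer degrees of freedom. Deviations of same-numbered samples correlated at −0.26 and 0.11. These values cannot decide whether the numbers pair the tumours, because the deviations of 2 wtIDH1 tumours from their mean mirror each other. None of the 5 called differences changed sign under any of these settings, but the calls of Hoxa2, Hoxa4 and Skap2 were lost without mutIDH1 sample 1, all 5 were lost without mutIDH1 sample 2, without mutIDH1 sample 3 and under the block, and Hoxb2 was called only without wtIDH1 sample 2. Signals at background limit what can be said of 29 HOX genes.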
